A study of Mus musculus with 4 samples.

Results

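The 10 genes described here mark the cardiac fibroblast in its resting and in its activated state, collagens left aside. Pdgfra, Tcf21, Dcn, Lum and Vim belong to the resident cell, and Postn, Acta2, Fn1, Tnc and Spp1 are known from the activated cell. They were taken by symbol from a list that does not use their values in its rule but was drawn up with earlier results of these data known, and make up 10 of the 23337 gene symbols in the deposited tables. The comparison asks how these genes stood in mouse hearts whose cardiomyocytes lack PIMT, the trimethylguanosine synthase encoded by Tgs1, compared with hearts that kept it.

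RNA-seq was performed on whole hearts of C57BL6/J mice, males and females pooled, in 4 groups with 1 library each. The controls were PIMTfl/fl mice of 2 months and of 6 months, which carry loxP-flanked PIMT alleles and for which no Cre is named. The csPIMT-/- mice of 2 months and of 6 months carry the same floxed alleles together with α-MyHC-Cre, a Cre transgene under the α-myosin heavy chain promoter. No animal was treated. Each library was made from the pooled RNA of 5 hearts, so the spread between animals was not measured. The promoter belongs to a cardiomyocyte gene, so the fibroblasts were not the cells targeted. Mice carrying the Cre alone are not analysed here. With 1 library a group, a ratio between 2 libraries has no replicate check and no p-value, and its 95% interval covers counting error only.

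In the healthy heart, fibroblasts lie between the myocytes, keep up the matrix and carry the PDGF receptor alpha and the transcription factor Tcf21. After injury or overload, TGF-beta, PDGF and stretch drive a part of them into an activated or myofibroblast state, in which they secrete periostin, fibronectin and tenascin C and may assemble smooth muscle actin into stress fibres. Whole-heart RNA mixes these cells with myocytes, vessels and leukocytes, so more cells of a type and more RNA per cell cannot be told apart.

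The libraries held between 29823073 and 40705783 reads on genes. Values are normalized read counts as deposited, in which 1 read is worth between 0.865 and 1.23. Tgs1 had 580 normalized counts in the 2-month and 816 in the 6-month control hearts, against 160 and 162 in csPIMT-/-. Its csPIMT-/- level was 0.276 (95% counting interval 0.227 to 0.334) of control at 2 months and 0.199 (0.167 to 0.236) at 6 months, as the genotype labels say. The 10 cardiomyocyte markers summed to between 1416882 and 1783845, led by Myh6, and none was at 0 in any library. The libraries differed in other ways that run beside the groups. Xist stood at 805 and 25639 in the 2- and 6-month controls and at 6369 and 12856 in csPIMT-/-, and the sum of 4 Y-linked genes at 8087, 1176, 449 and 616 in the same order, so the 2-month control pool held the most male RNA. The 2-month csPIMT-/- pool had all 7 lung epithelial markers above its control, with a sum of 1227 against between 1.73 and 19.8 elsewhere (Bpifa1 highest), and all 8 fat markers above its control, with a sum of 16877 against between 1910 and 4753 elsewhere (Cfd highest). It also had 5 of 6 mesothelial markers above its control, with a sum of 2725 against between 624 and 825 elsewhere (Upk3b highest). Their part in the results below was not tested.

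Of the 10 genes, 7 had an entry in the RefSeq promoter table (GRCm38.p6), and Fn1, Dcn and Lum had none. The 250 bases before the transcription start are shown for Postn, the gene whose genotype ratio differed most between the ages, and for Pdgfra, the gene furthest above control at 6 months. Capitals mark the TATA box letters, TATAAA, and Pdgfra has none.
Postn, chr3:54360857-54361106, plus strand: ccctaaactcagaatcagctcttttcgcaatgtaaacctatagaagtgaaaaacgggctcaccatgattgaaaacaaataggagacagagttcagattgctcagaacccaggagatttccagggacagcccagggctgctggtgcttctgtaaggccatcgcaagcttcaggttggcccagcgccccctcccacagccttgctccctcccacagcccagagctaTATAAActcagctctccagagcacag
Pdgfra, chr5:75152001-75152250, plus strand: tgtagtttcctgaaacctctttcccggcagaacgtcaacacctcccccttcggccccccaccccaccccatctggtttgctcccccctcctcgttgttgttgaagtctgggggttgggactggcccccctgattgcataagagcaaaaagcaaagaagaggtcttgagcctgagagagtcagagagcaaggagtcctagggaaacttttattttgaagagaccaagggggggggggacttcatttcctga
The TATAAA of Postn begins 26 bases before the start. On either strand, TATAAA was found in 4 of the 7 windows (Postn, Vim, Tnc and Spp1) and in 12.3% of 32544 promoter windows of this length. CAGACA, a Smad-type motif, was in 2 of the 7 (Acta2 and Spp1) and in 17.0% of all windows, and CATTCC, a TEAD-type motif, in 1 of the 7 (Acta2) and in 12.6% of all. The CArG box of serum response factor, searched only as exact matches to CCWWWWWWGG with W for A or T, was in 0 of the 7 windows and in 1.48% of all. Stretches a letter off that pattern were not counted, among them ccctatatgg and ccttgtttgg in the Acta2 window. TGANTCA, an AP-1 type motif, was in 0 of the 7 windows and in 6.73% of all. A match of letters is a description and no evidence of binding.

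Postn and Tnc code for matricellular proteins, secreted proteins that bind matrix and cell receptors and are scarce in most adult tissue. Postn (chromosome 3, 54361109 to 54391037, plus strand, mm10) had 18142 and 8274 normalized counts in the 2- and 6-month controls, and 6649 and 15118 in csPIMT-/- of 2 and 6 months. The 2-month control and the 6-month csPIMT-/- library were high and the other 2 low, so the genotypes overlapped. At 2 months the csPIMT-/- level was 0.367 (0.356 to 0.378) of control, and at 6 months 1.83 (1.78 to 1.88) times control. The 6-month ratio was 4.99 (4.79 to 5.19) times the 2-month ratio. Both control levels enter that figure, since Postn was 0.456 (0.445 to 0.467) times as high at 6 as at 2 months in the controls and 2.27 (2.20 to 2.35) times as high in csPIMT-/-.

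Tnc (chromosome 4, 63959785 to 64047015, minus strand) had 2001 and 690 normalized counts in the 2- and 6-month controls and 1025 and 988 in csPIMT-/-. Here the csPIMT-/- libraries lay close together and between the controls. The ratio to control was 0.512 (0.473 to 0.555) at 2 months and 1.43 (1.30 to 1.58) at 6 months, and the second was 2.80 (2.47 to 3.17) times the first. In the controls the 6-month level was 0.345 (0.317 to 0.374) of the 2-month level, the lowest age ratio among the 10 genes. In csPIMT-/- the age ratio was 0.965, with an interval of 0.878 to 1.06 that holds 1.

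Fn1, fibronectin (chromosome 1, 71585520 to 71653200, minus strand), had 19275 and 11658 normalized counts in the controls and 17588 and 17968 in csPIMT-/- at 2 and 6 months. The 6-month control was the low library and the other 3 lay close together. The genotype ratio was 0.912 (0.893 to 0.932) at 2 months and 1.54 (1.51 to 1.58) at 6 months. Fn1 overlaps Apol7d, an antisense gene, in the annotation, and the strand setting of the read counting is not given in the sources used here.

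Spp1, osteopontin, which activated fibroblasts and macrophages secrete, was the scarcest of the 10 (chromosome 5, 104435118 to 104441050, plus strand). It had 23 and 48 reads in the controls and 46 and 59 in csPIMT-/-, or 19.9, 42.2, 56.7 and 61.4 normalized counts. Both csPIMT-/- values lay above both controls. Its genotype ratio was 2.85 (1.69 to 4.93) at 2 months and 1.45 (0.977 to 2.18) at 6 months, and at this depth the second could not be told from 1. The 10 macrophage markers summed to 10864 and 23735 in the controls and 32947 and 48112 in csPIMT-/-, led by Lyz2, with 8 of 10 above control at 2 months and 9 of 10 at 6 months, and the part of macrophages in the Spp1 value was not tested.

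Acta2, smooth muscle alpha actin, is the stress fibre actin of the myofibroblast and also the main actin of vessel walls (chromosome 19, 34241090 to 34255590, minus strand). It had 44406 and 23928 normalized counts in the controls and 40962 and 17895 in csPIMT-/-. The order followed age, with both 2-month libraries above both 6-month libraries. The genotype ratio was below 1 at both ages, 0.922 (0.910 to 0.935) at 2 months and 0.748 (0.734 to 0.762) at 6 months. The 6-month level was 0.539 of the 2-month level in the controls and 0.437 in csPIMT-/-. The 10 smooth muscle and pericyte markers, led by Pdgfrb, summed to 47150 and 50372 in the controls and 53562 and 43804 in csPIMT-/-, and none was at 0. The ratio of the sums was 1.14 at 2 months and 0.870 at 6 months. Gene by gene the list was split, with 7 of the 10 above control at 2 months and 6 of the 10 at 6 months. Acta2 shares long near-identical coding stretches with Acta1, Actc1 and Actg2, so its count from single-end reads is uncertain where reads fit more than 1 of them.

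**Figure D1:**
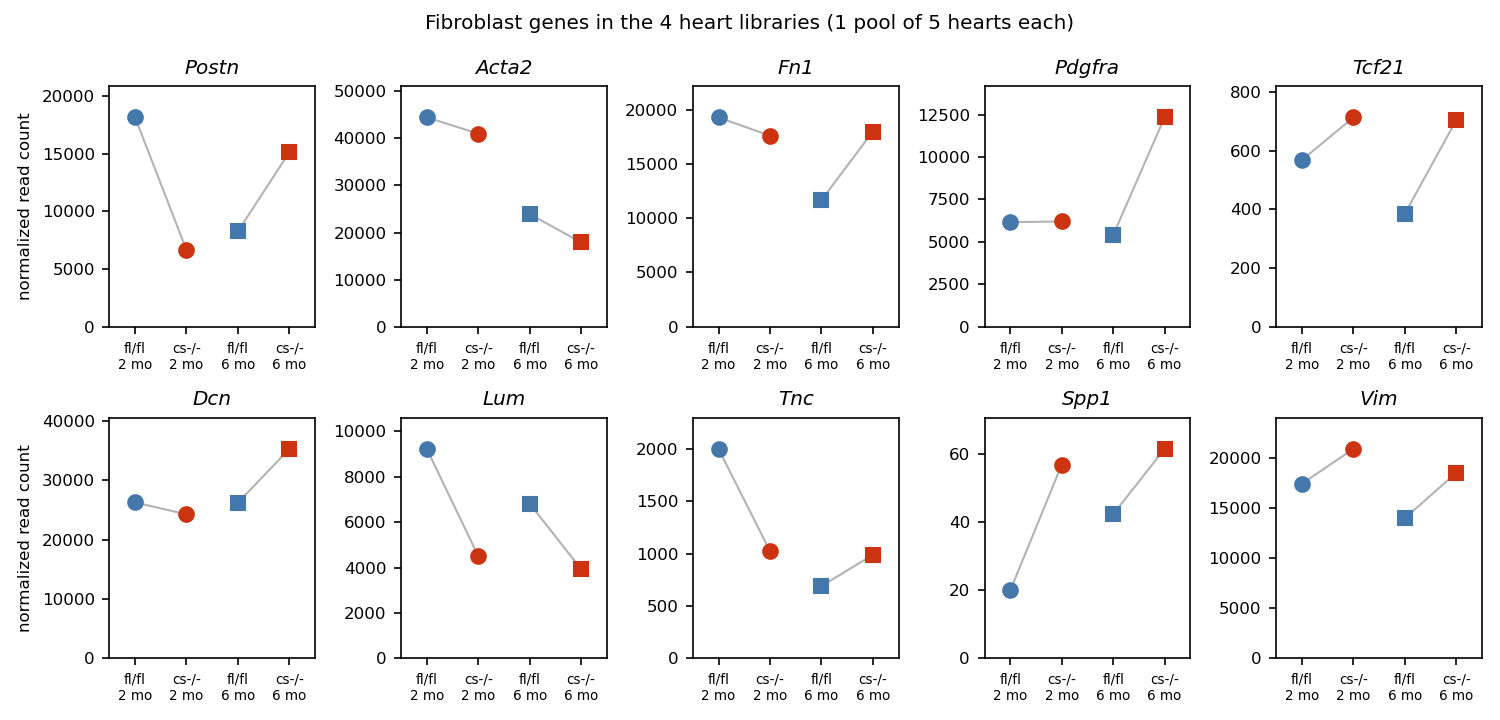
Normalized read count (vertical axis, linear, from 0) of each of the 10 genes in the 4 heart libraries, with circles for 2 months, squares for 6 months, blue for PIMTfl/fl and red for csPIMT-/-, each point 1 pool of 5 hearts and each grey line joining the pools of 1 age. Postn, Tnc, Fn1 and Dcn slope down at 2 months and up at 6 months, Lum and Acta2 slope down at both ages, and Pdgfra reaches 12329 in the 6-month csPIMT-/- library against 5387 to 6203 in the other 3.

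Pdgfra, the receptor for PDGF-A and PDGF-C ligands and the usual surface mark of the cardiac fibroblast (chromosome 5, 75152292 to 75198215, plus strand), had 6159 and 5387 normalized counts in the controls and 6203 and 12329 in csPIMT-/-. One library, the 6-month csPIMT-/- pool, stood apart from the other 3. The genotype ratio was 1.01 (0.971 to 1.04) at 2 months and 2.29 (2.22 to 2.36) at 6 months, the highest 6-month value of the 10 genes. It was 2.00 against the 2-month control. In csPIMT-/- the 6-month level was 1.99 (1.92 to 2.05) times the 2-month level, and in the controls 0.875 (0.845 to 0.905) times.

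Tcf21, a basic helix-loop-helix factor needed to form cardiac fibroblasts (chromosome 10, 22817281 to 22820174, minus strand), had 568 and 385 normalized counts in the controls and 713 and 703 in csPIMT-/-. Both csPIMT-/- values lay above both controls, with the 6-month control lowest. It was 1.26 (1.12 to 1.41) times control at 2 months and 1.83 (1.62 to 2.06) times at 6 months. Vim, vimentin, the intermediate filament of mesenchymal, endothelial and blood cells (chromosome 2, 13573927 to 13582826, plus strand), had 17435 and 13985 normalized counts in the controls and 20904 and 18529 in csPIMT-/-. Both csPIMT-/- values again lay above both controls, and the ratios were 1.20 (1.17 to 1.22) and 1.32 (1.30 to 1.35). In the annotation Tcf21 overlaps the antisense gene Gm10824, Tnc overlaps 8030451A03Rik on the opposite strand, and Pdgfra and Spp1 overlap predicted genes, so reads in those stretches are uncertain.

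Dcn and Lum code for decorin and lumican, small leucine-rich proteoglycans that bind collagen fibrils and set their spacing. They are neighbours on the plus strand of chromosome 10, Dcn at 97479609 to 97518143 and Lum at 97565128 to 97572703, with 46984 bases between them. Dcn had 26257 and 26205 normalized counts in the controls, the closest pair of controls of the 10 genes, and 24243 and 35263 in csPIMT-/-. The genotype ratio was 0.923 (0.907 to 0.940) at 2 months and 1.35 (1.32 to 1.37) at 6 months. Lum had 9227 and 6814 normalized counts in the controls and 4508 and 3934 in csPIMT-/-. The groups did not overlap for Lum, with both csPIMT-/- values below both controls. With 2 libraries a genotype, such an order, here and for Spp1, Tcf21 and Vim, is a description and no test. For 76.5% of all genes at 2 months and 77.0% at 6 months, the genotype difference was larger than that between the controls. The Lum ratio was 0.489 (0.470 to 0.507) at 2 months and 0.577 (0.555 to 0.60) at 6 months. Although they lie side by side, Dcn and Lum thus stood on opposite sides of control at 6 months on the deposited scale, and both below it at 2 months. With the trend of GC content described below subtracted, both stood above control, Dcn at 2.98 and 4.46 and Lum at 1.06 and 1.44 at 2 and 6 months.

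At 2 months, 4 of the 10 genes were above and 6 below control, with a median ratio of 0.923 against 0.999 over the 15152 genes compared, those for which either library held 10 reads or more. Past 2-fold, 1 was higher (Spp1) and 2 were lower (Postn and Lum), where 17.3% of all genes were past 2-fold higher and 22.5% lower (39.7% in either direction). At 6 months, 8 were above and 2 below control, with a median of 1.44 against 1.0 over 15218 genes. Past 2-fold, 1 was higher (Pdgfra) and 0 were lower, where 16.9% of all genes were past 2-fold higher and 24.9% lower (41.9% in either direction). Just inside the 2-fold limit at 2 months stood Tnc at 0.512, and just outside it Lum at 0.489. On the deposited scale the counts of these genes past 2-fold were thus no greater than the background of these libraries. With the trend of GC content described below subtracted, 2 of the 10 were past 2-fold higher and 1 lower at 2 months, against 14.9% and 11.7% of all genes, and 4 higher and 0 lower at 6 months, against 14.2% and 13.4%. The genotype difference was larger than the difference between the controls of 2 and 6 months, on the log2 scale, for 4 of the 10 genes at 2 months (Postn, Dcn, Lum and Spp1) and 5 at 6 months (Pdgfra, Tcf21, Dcn, Lum and Vim), compared with 76.5% and 77.0% of all genes.

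With age in the controls, 1 of the 10 genes was above its 2-month level and 9 were below. Past 2-fold, 1 was higher (Spp1) and 2 were lower (Postn and Tnc), where 9.01% of all genes were past 2-fold higher and 4.65% lower, and the median was 0.708 against 1.05 over all genes. In csPIMT-/- 5 were above and 5 below. Past 2-fold, 1 was higher (Postn) and 1 lower (Acta2), where 9.71% and 8.2% of all genes were, and the median was 1.0 against 1.04. In the controls 3 of the 10 were thus past 2-fold in either direction, against 13.7% of all genes, and in csPIMT-/- 2 of the 10, against 17.9%. The control pools also differed in their male RNA, and age and the mix of the sexes cannot be told apart.

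The choice of control mattered for the activation genes. Against the 6-month control, the 2-month csPIMT-/- hearts had a Postn ratio of 0.804, a Tnc ratio of 1.49, an Fn1 ratio of 1.51 and an Acta2 ratio of 1.71, and 0 of the 10 genes were past 2-fold, where 14.8% of all genes were past 2-fold higher and 25.1% lower. Against the 2-month control, the 6-month csPIMT-/- hearts had a Postn ratio of 0.833, a Tnc ratio of 0.494, an Fn1 ratio of 0.932 and an Acta2 ratio of 0.403, with 2 of the 10 past 2-fold higher and 3 lower against 19.0% and 21.4% of all genes. So Tnc and Fn1 changed sides with the control at both ages, Acta2 did at 2 months and Postn at 6 months. Pdgfra at 2.00, Lum at 0.426, Tcf21 at 1.24, Vim at 1.06 and Spp1 at 3.08 kept their side of 1 at 6 months, and Lum at 0.661 kept it at 2 months.

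**Figure D2:**
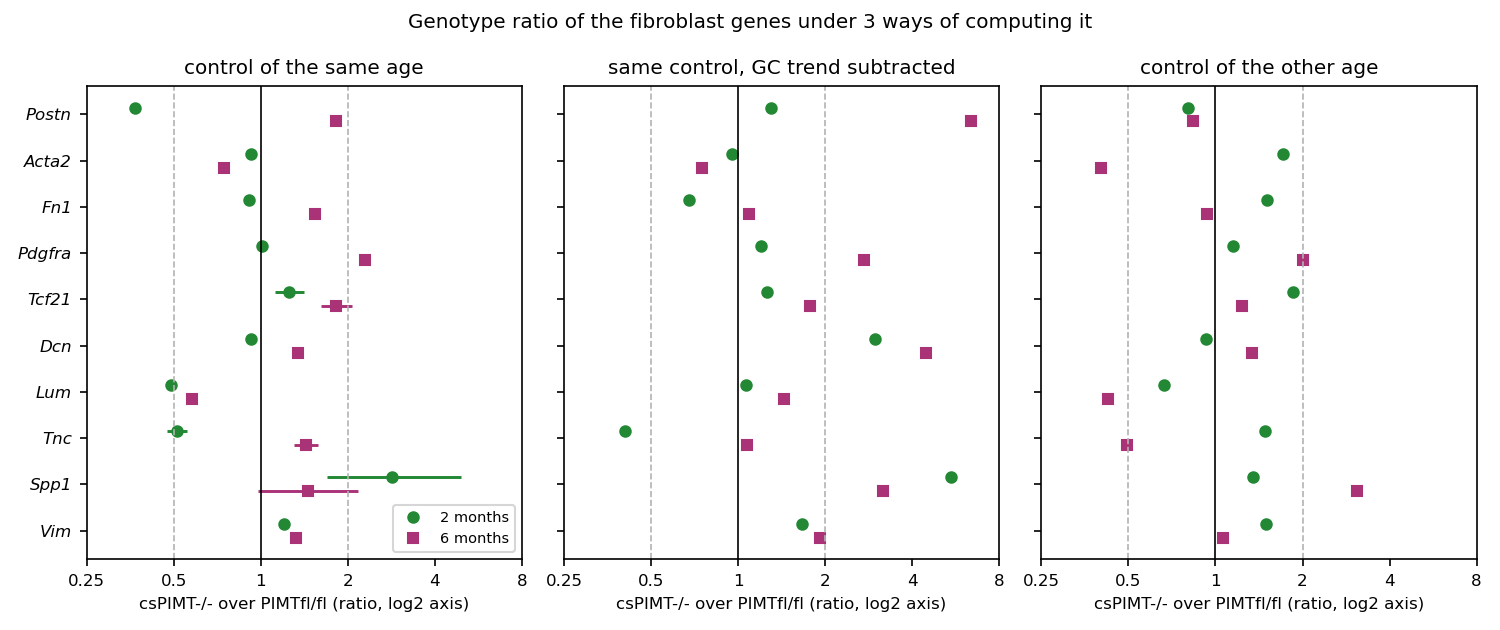
Ratio of csPIMT-/- to PIMTfl/fl normalized counts (horizontal log2 axis, solid line at 1, dashed lines at 2-fold) for the 10 genes at 2 months (green circles) and 6 months (purple squares), first against the control of that age, then with the GC trend subtracted, then against the other control, with bars for the 95% counting interval in the first panel. Lum lies left of 1 against both controls and right of 1 with the trend subtracted, Pdgfra lies at 2.00 or above at 6 months in all 3 panels, and Postn moves from 0.367 to 1.29 at 2 months and from 1.83 to 6.39 at 6 months with the trend subtracted.

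The genotype ratio also ran with the base composition of the transcripts. Over the genes compared, Spearman's rho between the log2 ratio and the GC content of the longest transcript was 0.580 at 2 months and 0.607 at 6 months, a description across genes that share the same 2 libraries, and −0.268 and −0.0949 for the age ratios in controls and csPIMT-/-. Transcripts poor in GC were on the whole lower in csPIMT-/-. Postn at 36.3% GC, Dcn at 37.4%, Lum at 41.9% and Spp1 at 43.3% are such genes, and Fn1 at 53.5% and Tnc at 52.5% lie at the other end. With the trend subtracted, the 2-month ratio was 1.29 for Postn, 2.98 for Dcn, 1.06 for Lum, 0.406 for Tnc and 0.674 for Fn1. At 6 months it was 6.39 for Postn, 4.46 for Dcn, 2.72 for Pdgfra, 1.44 for Lum, 1.07 for Tnc and 1.09 for Fn1. Postn at 2 months and Lum at both ages were therefore below control as measured and above control relative to transcripts of the same GC content, and whether the trend is of the libraries or of the hearts was not tested. With the trend subtracted, the ratio of the ages' ratios was 4.94 for Postn, 2.65 for Tnc and 2.27 for Pdgfra, beside 4.99, 2.80 and 2.27 without it.

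**Figure D3:**
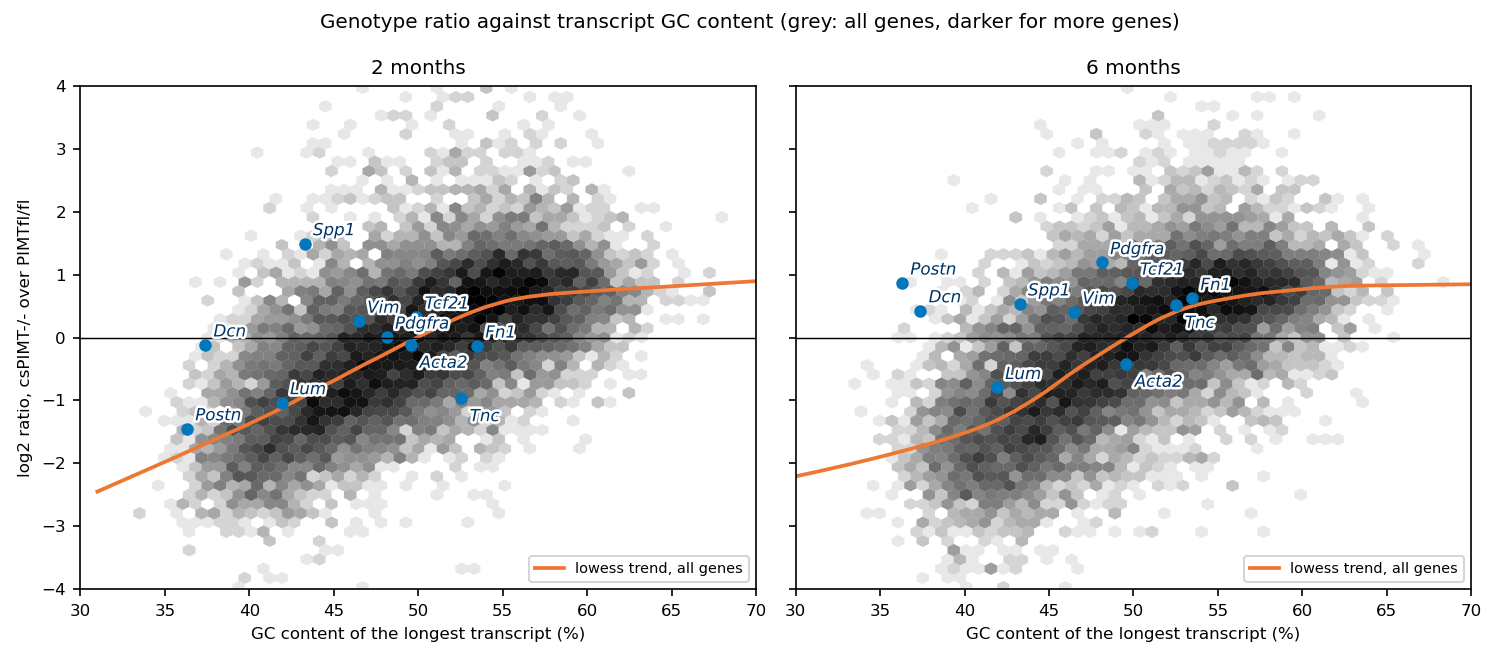
Log2 ratio of csPIMT-/- to PIMTfl/fl (vertical axis) against the GC content of the longest transcript in percent (horizontal axis) at 2 and 6 months, with all genes as grey hexagons (darker for more genes), the lowess trend in orange and the 10 genes as blue points. Lum lies near the trend at both ages, Postn lies near it at 2 months and well above it at 6 months, Dcn lies above it at both ages, and Tnc lies below it at 2 months.

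Genotype was next compared over both ages with limma on log2(normalized count + 1), with genotype and age as terms, which leaves 1 residual degree of freedom for 4 libraries. Of 14847 genes, 1637 (11.0%) were called higher and 2595 (17.5%) lower in csPIMT-/- at a Benjamini-Hochberg adjusted p under 0.05. Of the 10 genes, 0 were called higher and 1, Lum, was called lower. Lum fell by 0.91 on the log2 scale (SE 0.20, adjusted p = 0.033), with adjusted p = 0.0382 by edgeR's quasi-likelihood test and 0.0107 by DESeq2 on the recovered reads, where edgeR called 11.0% of all genes higher and 17.0% lower and DESeq2 14.8% and 20.2%. After GC subtraction the Lum difference was 0.32 on the log2 scale with limma adjusted p = 0.385, and that fit called 0 of all genes (3829 at an unadjusted p under 0.05). Without each library in turn, in a fit with no age term, the limma adjusted p of Lum was between 0.0595 (without the 2-month csPIMT-/- library) and 0.179 (without the 2-month control), so leaving out any 1 of the 4 ended the call. Each of those fits sets 1 library against 2 and assumes that the lone library varies like the others, and the log2 difference of Lum lay between -0.69 and -1.13 in them. The other 9 genes did not pass. Pdgfra had a log2 difference of 0.60 (SE 0.33) with limma adjusted p = 0.215 (1.10 with 0.0384 without the 2-month csPIMT-/- library, in a fit with no age term), Tcf21 of 0.60 (SE 0.28) with 0.168, and Spp1 of 1.0 (SE 0.57) with 0.234. Postn had a log2 difference of -0.29 with a standard error of 0.55, the largest after Spp1, and limma adjusted p = 0.710.

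Per kilobase of annotated exon, a scale on which genes can be set beside each other, Acta2 was the most abundant of the 10 in every library, from 20221 normalized counts per kilobase in the 2-month control to 8149 in the 6-month csPIMT-/- hearts. Dcn, Vim and Lum followed in the 2nd to 5th places, Dcn with between 4153 and 6040 per kilobase, Vim with between 2948 and 4407 and Lum with between 1607 and 3769. Lum held the 3rd place in the 2-month control and the 5th in the 6-month csPIMT-/- hearts. Postn held the 5th place in the 2-month control (2085 per kilobase), the 6th in the 6-month control (951) and the 2-month csPIMT-/- hearts (764), and the 4th in the 6-month csPIMT-/- hearts (1737). Pdgfra was in the 7th place and Spp1 in the 10th in every library. Tnc stood above Tcf21 in the 2-month control, at 257 against 242 per kilobase, and below it in the other 3 libraries.

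Setting each gene beside Pdgfra in the same library removes the library scale and shows how the make-up of the set differed. For each Pdgfra read there were 2.95 (2.87 to 3.03) Postn reads in the 2-month control, 1.54 (1.49 to 1.59) in the 6-month control, 1.07 (1.03 to 1.11) in the 2-month csPIMT-/- hearts and 1.23 (1.20 to 1.26) in the 6-month csPIMT-/- hearts. Both csPIMT-/- libraries thus had fewer Postn reads per Pdgfra read than both controls. The same order held for Lum, with 1.50 and 1.26 reads per Pdgfra read in the controls and 0.727 and 0.319 in csPIMT-/-. Dcn had 4.26 and 4.86 in the controls and 3.91 and 2.86 in csPIMT-/-. For Acta2 the 6-month csPIMT-/- library was the low one, with 1.45 against 7.21, 4.44 and 6.60 in the 2-month control, 6-month control and 2-month csPIMT-/- libraries. Fn1 had 1.46 in that library against between 2.16 and 3.13 in the others, Vim 1.50 against between 2.60 and 3.37, and Tcf21 0.0570 against between 0.0715 and 0.115. So the 6-month csPIMT-/- hearts held more Pdgfra reads relative to each of these genes than any other library, Postn excepted. Pdgfra had the highest 6-month genotype ratio of the 10 genes, at 2.29. Each other gene per Pdgfra read therefore had to lie below the 6-month control in these hearts, also Postn, which was itself above control. That part follows from the choice of Pdgfra and is no separate result, and all these values describe single pools. The reads per Pdgfra read were not corrected for GC content, which is 48.1% for Pdgfra and 36.3% for Postn. With the GC trend described above subtracted, Pdgfra had genotype ratios of 1.20 at 2 months and 2.72 at 6 months. Postn, at 1.29 and 6.39, and Dcn, at 2.98 and 4.46, then stood above Pdgfra at both ages. Lum, at 1.06 and 1.44, stayed below it.

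Among 10833 genes read 100 times or more in every library, the 5 whose pattern over the 4 libraries lay closest to that of Postn were Car2, Car4, Kcna5, Scube1 and Mmp14, at Euclidean distances of 0.185, 0.202, 0.257, 0.290 and 0.321 between centred log2(normalized count + 1) values. Car2 and Car4 are carbonic anhydrases, Kcna5 a voltage-gated potassium channel and Mmp14 a membrane-bound matrix metalloproteinase. Mmp14, for example, had 2722 and 1077 normalized counts in the controls and 822 and 2475 in csPIMT-/-. Tnc was the closest of the 10 genes described, at rank 563 (distance 0.922), and Acta2 the furthest of those ranked, at rank 7328 (1.69).

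Other fibroblast genes were compared in the same way, from lists chosen with earlier results of these data known. The limma calls given for them all come from the fit without GC subtraction. Of 14 further genes of the resting fibroblast, 7 were more than 2-fold above control at 2 months and 8 at 6 months, with 0 below at either age and median ratios of 1.87 and 2.18. By limma 6 of the 14 were called higher and 0 lower. Mgp, an inhibitor of matrix calcification, had 8298 and 8130 normalized counts in the controls and 29234 and 35977 in csPIMT-/- (limma log2 difference 1.98, SE 0.22, limma adjusted p = 0.0163), and Dpt, dermatopontin, had 7840 and 6366 in the controls and 6711 and 3417 in csPIMT-/- (adjusted p = 0.143). Mfap5, a microfibril protein, had 2947 and 2029 in the controls and 4774 and 7301 in csPIMT-/-. After GC subtraction, 6 of 14 were past 2-fold higher at each age, and 0 were lower at 2 months and 1 at 6 months.

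Of 18 further genes of the activated fibroblast, 11 were past 2-fold higher and 3 lower at 2 months, and 12 higher and 1 lower at 6 months, with median ratios of 3.15 and 2.68. By limma 9 were called higher and 1 lower. Comp, a cartilage and tendon matrix protein, had 421 and 1045 normalized counts in the controls and 4096 and 9822 in csPIMT-/- (log2 difference 3.25, SE 0.21, limma adjusted p = 0.0163). Ltbp2, a microfibril protein of the latent TGF-beta binding protein family, had 352 and 696 in the controls and 2889 and 9838 in csPIMT-/- (log2 difference 3.43, SE 0.28, limma adjusted p = 0.0163). Fap, a surface protease of activated fibroblasts, went the other way, with 628 and 511 in the controls and 77.7 and 124 in csPIMT-/- (log2 difference -2.52, SE 0.39, limma adjusted p = 0.0188). After GC subtraction, 10 of 18 were past 2-fold higher at 2 months and 9 at 6 months. The 6 cartilage and valve markers summed to 871 and 1426 in the controls and 4632 and 10052 in csPIMT-/-. Comp, itself in the activated list, made up 421 and 1045 of the control sums and 4096 and 9822 of the csPIMT-/- sums. Of the 6, 5 were above control at 2 months and 3 at 6 months. The 5 atrial myocyte markers summed to 40742 and 121253 in the controls and 334131 and 349424 in csPIMT-/-. Of these, 5 were above control at 2 months and 1 at 6 months. The 1 was Nppa, the most abundant, with 70659 in the 6-month control and 320296 in the 6-month csPIMT-/- hearts. The part of both marker sets in the activated list was not tested. On the deposited scale the 10 genes described stood below the further genes, at a median of 0.923 against 3.15 for the activated list at 2 months and 1.44 against 2.68 at 6 months, a contrast that was not tested and that depended on the scaling. After GC subtraction the medians were 1.23 and 1.84 for the 10 genes, 2.59 and 1.96 for the activated list and 1.75 at both ages for the resting list.

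Among 13 fibroblast collagens, 1 was past 2-fold higher at 2 months and 6 at 6 months, with 0 lower and median ratios of 1.02 and 1.86, and limma called 2 higher, Col8a1 and Col12a1. Col12a1, a fibril-associated collagen, had 901 and 546 normalized counts in the controls and 2167 and 2558 in csPIMT-/-, and Col16a1 had 2113 and 1310 in the controls and 2741 and 4449 in csPIMT-/-. Col15a1, a basement membrane zone collagen and the lowest of the list at 6 months, had ratios of 0.961 (0.943 to 0.979) and 0.937 (0.915 to 0.959). Subtracting the GC trend, the collagen medians were 0.679 and 1.20, with 2 past 2-fold higher and 3 lower at 2 months and 3 higher and 0 lower at 6 months. Among the 9 measured small leucine-rich proteoglycans besides Dcn and Lum, 5 were past 2-fold higher and 2 lower at 2 months, and 4 higher and 2 lower at 6 months, and limma called Bgn, Fmod and Prelp higher and Ogn lower. Bgn, biglycan, the closest relative of decorin, had 5547 and 10484 in the controls and 18590 and 33643 in csPIMT-/- (log2 difference 1.71, SE 0.20, limma adjusted p = 0.0163), whereas Dcn did not pass (0.16, SE 0.25, limma adjusted p = 0.655). Fmod, fibromodulin, had 286 and 327 in the controls and 1090 and 917 in csPIMT-/-. Epyc, epiphycan, the lowest at 6 months, had 23.4 and 158 in the controls and 144 and 20.8 in csPIMT-/-, ratios of 6.17 and 0.131. After GC subtraction 6 of the 9 were past 2-fold higher and 0 lower at 2 months, and 3 higher and 1 lower at 6 months, with a 6-month median of 1.71 against 0.990 without it, and Dcn had a log2 difference of 1.85 (SE 0.25, limma adjusted p = 0.0951).

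**Figure D4:**
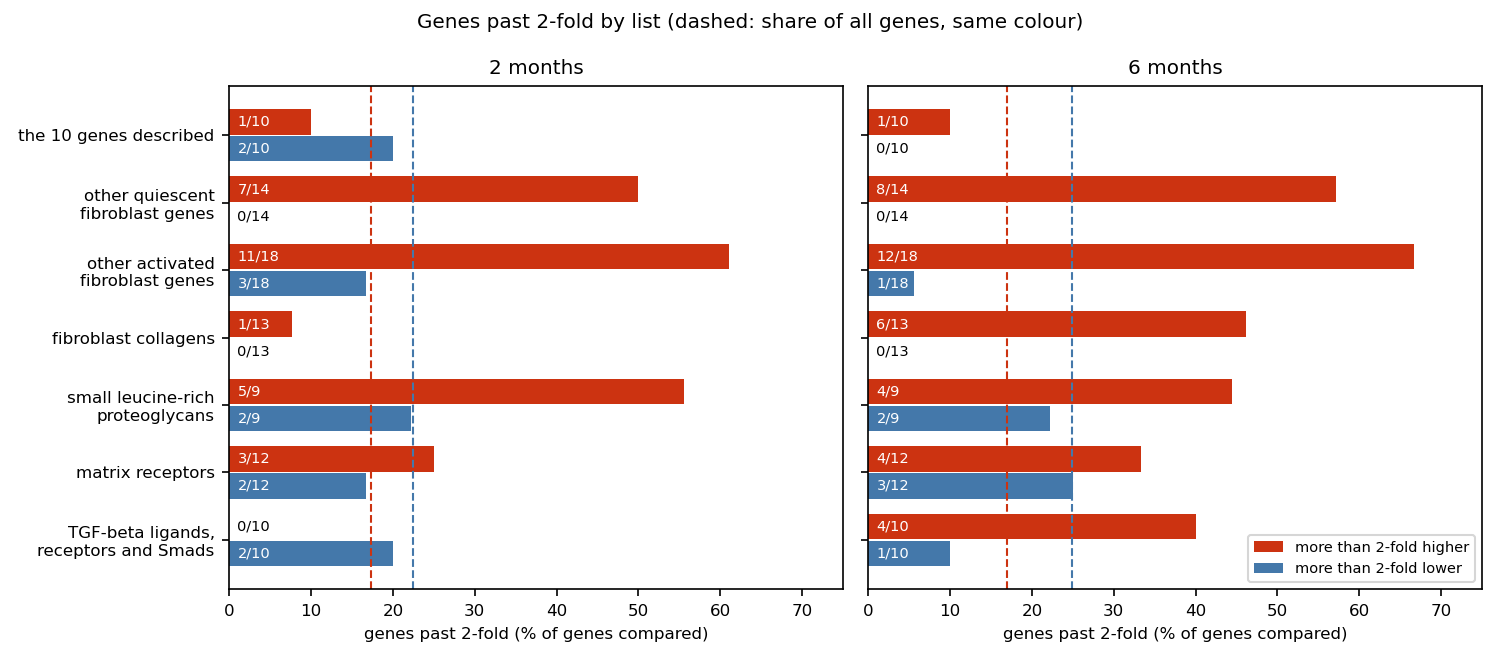
Share of the genes of each list (horizontal axis, percent of the genes compared) more than 2-fold higher (red) or lower (blue) in csPIMT-/- than in PIMTfl/fl of the same age, at 2 and 6 months, with the numbers of genes in the bars and dashed lines at the share of all genes. The 10 genes described lie below the dashed lines in both directions at both ages, whereas 11 of 18 and 12 of 18 other activated fibroblast genes are more than 2-fold higher.

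The receptors and signals around the 10 genes were mixed. Of 12 matrix receptors, 3 were past 2-fold higher and 2 lower at 2 months and 4 higher and 3 lower at 6 months, and limma called 3 higher and 2 lower. Itgb5, the integrin chain that binds vitronectin and periostin, had 5978 and 6337 normalized counts in the controls and 14450 and 23415 in csPIMT-/- (log2 difference 1.58, SE 0.24, limma adjusted p = 0.0187), and Sdc4, syndecan 4, a heparan sulfate co-receptor for fibronectin, had ratios of 1.86 and 3.15. Itgb1, the chain shared by fibronectin and collagen receptors, had 22908 and 23069 in the controls and 6331 and 7099 in csPIMT-/- (log2 difference -1.78, SE 0.20, limma adjusted p = 0.0163). After GC subtraction, 2 of the 12 were past 2-fold higher and 3 lower at 2 months, and 3 higher and 0 lower at 6 months. Of 4 PDGF ligands and Pdgfrb, limma called 0, and Pdgfrb had ratios of 1.38 (1.34 to 1.42) at 2 months and 1.27 (1.23 to 1.31) at 6 months beside the 1.01 and 2.29 of Pdgfra. The ligand Pdgfc had ratios of 2.44 (1.86 to 3.22) and 1.21 (0.952 to 1.53), and Pdgfd of 1.01 (0.895 to 1.13) and 0.846 (0.760 to 0.942).

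Of 10 TGF-beta ligands, receptors and Smads, 0 were past 2-fold higher and 2 lower at 2 months, 4 higher and 1 lower at 6 months, and limma called 1 higher (Tgfb3) and 1 lower (Smad2). With the GC trend subtracted, 0 were past 2-fold at 2 months and 2 were higher and 0 lower at 6 months. Tgfb2 had 615 and 661 normalized counts in the controls and 621 and 3557 in csPIMT-/-, so that, as for Pdgfra, the 6-month csPIMT-/- library alone was high. The genotype ratio was 1.01 (0.899 to 1.13) at 2 months and 5.38 (4.97 to 5.83) at 6 months, and Tgfb2 did not pass over both ages (log2 difference 1.22, SE 0.59, limma adjusted p = 0.170). Of the 4 SRF and MRTF factors, which drive smooth muscle actin transcription, 0 were past 2-fold at 2 months and 1, Mkl1, was at 6 months (ratio 2.40), with 0 at 6 months after GC subtraction and 0 against the other control. Srf had ratios of 0.985 and 1.90, and limma called Myocd lower, with 4418 and 4183 normalized counts in the controls and 2283 and 2310 in csPIMT-/-.

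Of 8 other intermediate filament and actin genes, the relatives of Vim and Acta2, 2 were past 2-fold higher and 1 lower at 2 months and 3 higher and 1 lower at 6 months. With the GC trend subtracted, 1 was past 2-fold higher and 1 lower at 2 months, and 2 were higher and 1 lower at 6 months. The medians were then 1.16 and 1.10, against 1.37 and 1.36 without it. By limma without GC subtraction, Des and Acta1 rose and Nes fell. Des, desmin, the muscle intermediate filament, had 61588 and 61406 normalized counts in the controls and 153812 and 269499 in csPIMT-/- (log2 difference 1.73, SE 0.33, adjusted p = 0.026). Acta1, skeletal alpha actin, had 22823 and 24275 in the controls and 122146 and 94112 in csPIMT-/- (log2 difference 2.19, SE 0.26, limma adjusted p = 0.0163), while Acta2 did not pass (-0.27, SE 0.23, limma adjusted p = 0.409). Of the 3 measured tenascin and periostin relatives, limma called Tgfbi and Tnxb higher. Tgfbi, the paralogue of periostin, had 1224 and 1534 in the controls and 3478 and 3693 in csPIMT-/-, with genotype ratios of 2.84 (2.66 to 3.03) and 2.41 (2.27 to 2.55) beside the 0.367 and 1.83 of Postn. Tnr, tenascin R, named after its values were seen, was past 2-fold lower at both ages, with log2 ratios of -1.99 and -1.95. After GC subtraction Postn stood at 1.29 and 6.39, and the medians of the 3 relatives were 1.24 and 0.927, with 1 past 2-fold higher at 2 months, 0 at 6 months and 1 lower at each age, against medians of 2.09 and 1.60 without it. Of the 4 relatives of Spp1 in its secreted phosphoprotein family, 0 had enough reads to be compared.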

How the data were processed

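Heart RNA of 5 mice was pooled for each of 4 libraries (PIMTfl/fl and csPIMT-/- at 2 and 6 months). Per the study's methods, directional poly(A) libraries were read single-end, reads of poor quality or from rRNA were removed, the rest aligned to mm10 with STAR and counted per gene with htseq-count on a UCSC annotation (HTSeq 0.6.1p1 in the submitters' processing notes), and the counts were passed to DESeq2. The values the authors deposited are counts per gene divided by 1 size factor a library, treated here as a signal. Dividing by the smallest value above 0 gave whole reads for 100% of the values (largest deviation below a millionth of a read), and depths of 29823073 to 40705783 reads on genes.

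Ratios were taken between deposited values of 2 libraries, for genes with at least 10 recovered reads in 1 of them. Their 95% intervals are exact Clopper-Pearson intervals on the recovered reads (scipy 1.17.1), with a large-sample interval on the log scale for a ratio of 2 ratios, and they cover counting error only. A call is a ratio past 2-fold, with no p-value. Genotype over both ages was fitted with limma 3.58.1 (R 4.3.3) on log2(normalized count + 1) with genotype and age as terms and a mean trend, for genes with at least 10 normalized counts in 2 libraries, at a Benjamini-Hochberg adjusted p of 0.05. The alternatives were edgeR 4.0.16 and DESeq2 1.42.0 on the recovered reads, TMM scaling, size factors of the 2 libraries compared, other pseudocounts and filters, the other control, the mean of both controls, and subtraction of a lowess trend with GC content (span 0.3, statsmodels 0.14.6). GC content, exon lengths and coordinates are from GENCODE M21 (GRCm38, the same assembly as mm10). The procedure was tested on simulated counts.

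The members and gene lists were chosen with earlier results of these data known. The text names all 10 members and, of each list, the 2 genes with the highest and the 1 with the lowest 6-month ratio among those with 100 reads or more in either library compared. Genes called by limma are named by symbol only.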

Additional observations from a re-analysis of the deposited data

Results flagged for a closer look

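For 4 of the 10 genes the genotype ratio lay below 1 at 2 months and above 1 at 6 months. The share of all genes that crossed 1 in this way was not computed, so the count has no background to be set against. With 1 library a group the difference between the ages was not tested. In Postn it was 0.367 and then 1.83, in Fn1 0.912 and 1.54, in Dcn 0.923 and 1.35, and in Tnc 0.512 and 1.43. Against the control of the other age the ratios were 0.804 and 0.833 for Postn, 1.51 and 0.932 for Fn1, 0.925 and 1.34 for Dcn, and 1.49 and 0.494 for Tnc. With the GC trend subtracted they were 1.29 and 6.39 for Postn, 0.674 and 1.09 for Fn1, 2.98 and 4.46 for Dcn, and 0.406 and 1.07 for Tnc.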

How the results depend on the processing

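The number of genes past 2-fold at 2 months, 1 higher and 2 lower, was 2 and 1 with the GC trend subtracted (14.9% and 11.7% of all genes) and 0 and 0 against either the other control (14.8% and 25.1%) or the mean of both controls (14.5% and 24.2%). It was 0 higher with a minimum of 100 reads, and 0 higher and 1 lower where the whole interval had to lie past 2-fold. The share of all genes was not computed under these 2 settings, so these counts cannot be set against a background. At 6 months, 1 higher and 0 lower, it was 4 higher with the GC trend subtracted (14.2% of all genes), 2 higher and 3 lower against the other control (19.0% and 21.4%), and 1 lower against the mean of both (24.0%). With the GC trend subtracted, 0 of the 10 genes were past 2-fold higher with age in controls or in csPIMT-/-, against 1 each, and the share of all genes was not computed there. In the limma fit, the 1637 genes called higher and 2595 called lower became 0 and 0 with the GC trend subtracted (3829 at an unadjusted p under 0.05) and 0 and 0 without a mean trend (5965), and with no age term 274 and 1280 without the 2-month control, 363 and 366 without the 6-month control, 1082 and 1739 without the 2-month csPIMT-/- library and 659 and 1882 without the 6-month one. Of the 10 genes, the 1 called lower became 0 under each of these, with Lum at limma adjusted p = 0.0998 without a mean trend, and between 0 and 1 were called higher without 1 library (Pdgfra, without the 2-month csPIMT-/- library, log2 difference 1.10, limma adjusted p = 0.0384).

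The 2-month ratio reversed with the GC trend subtracted for Postn (1.295) and Lum (1.06), as did the limma log2 difference of Postn (1.495), Fn1 (-0.21) and Lum (0.32). Without the 2-month control, the log2 difference reversed for Postn (0.28), Acta2 (0.18) and Tnc (0.54), without the 6-month control for Fn1 (-0.12), without the 2-month csPIMT-/- library for Postn (0.30), and without the 6-month csPIMT-/- library for Acta2 (0.33) and Dcn (-0.11). The cause of these moves was not tested. Under edgeR, DESeq2 and the fit without an age term, all 10 genes kept their direction and side of the threshold. No paired analysis was possible because each group holds 1 library, other than the age term of the limma fit, which compares the genotypes within each age. Counting error was largest for Spp1, with between 23 and 59 reads. The counting interval also spanned the 2-fold limit for Lum (0.470 to 0.507) and Tnc (0.473 to 0.555) at 2 months. It did so for Tcf21 (1.62 to 2.06) at 6 months, and that of Pdgfra at 2 months (0.971 to 1.04) held 1.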
